A study of Mus musculus with 3 samples.

Results

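The NF-kappa-B family examined here comprised 9 genes of the 21938 protein-coding genes in the mouse GENCODE annotation. They were Nfkb1, Nfkb2, Rel, Rela and Relb, which encode the DNA-binding subunits, Nfkbia, Nfkbib and Nfkbie, which encode the classical inhibitors IkB-alpha, IkB-beta and IkB-epsilon, and Bcl3, which encodes an atypical member of the inhibitor family. The family was chosen by measured values, because a peak upstream of Relb was among the strongest of the vehicle list, so the presence, score and rank of the peaks below are a description and no test was applied to them. A peak was assigned to a gene when it shared at least 1 bp with the gene body or with the 50 kb on either side. By this rule 15 of 5721 vehicle peaks and 11 of 4025 cAMP peaks were assigned to the 9 genes.

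Ad4BP/SF-1 (Nr5a1) is the nuclear receptor that drives the steroid-producing programme of the gonads and the adrenal cortex. Its binding was measured by ChIP-seq in Leydig cells, the androgen-producing cells of the testis, prepared from 9-week-old male mice of the ICR strain and cultured on collagen. The vehicle group was 1 immunoprecipitated library from cells given vehicle, and the cAMP group was 1 library from cells given cAMP, the second messenger through which luteinizing hormone acts on these cells. Testes of several mice were pooled, the labels give neither dose nor duration of the cAMP treatment, and a library of input DNA was not used here. Because there was 1 library per condition, no difference between the lists has a replicate check.

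NF-kappa-B proteins bind DNA as dimers of the subunits and are held inactive in the cytoplasm by the inhibitors until signals from cytokine or pattern-recognition receptors lead to their degradation. Rela and Nfkb1 form the classical dimer, and Relb with Nfkb2 forms the dimer of the non-canonical pathway. Macrophages lie next to Leydig cells in the testis, and inflammatory cytokines are known to lower steroid production in Leydig cells.

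The sequences that carried the strongest and the shared peaks are given first, because each of them bears the octamer that Ad4BP/SF-1 recognises. The octamer was searched on both strands as CCAAGGCC, CCAAGGTC, TCAAGGCC or TCAAGGTC, and capitals mark it in each line. All sequences were read from the mm10 genome (GRCm38.p6 of RefSeq). The 300 bases at the centre of the stretch shared by the vehicle and cAMP peaks upstream of Relb, chr7:19634651-19634950 on the plus strand, and those of the peak pair upstream of Nfkbib, chr7:28775998-28776297 on the plus strand, were as follows.
Relb, shared peak: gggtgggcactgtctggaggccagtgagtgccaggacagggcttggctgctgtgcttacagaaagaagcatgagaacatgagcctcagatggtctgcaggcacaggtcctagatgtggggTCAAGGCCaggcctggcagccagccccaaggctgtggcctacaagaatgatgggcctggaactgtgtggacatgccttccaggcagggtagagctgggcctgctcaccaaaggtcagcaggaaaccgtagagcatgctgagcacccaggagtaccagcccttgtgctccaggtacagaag
Nfkbib, shared peak: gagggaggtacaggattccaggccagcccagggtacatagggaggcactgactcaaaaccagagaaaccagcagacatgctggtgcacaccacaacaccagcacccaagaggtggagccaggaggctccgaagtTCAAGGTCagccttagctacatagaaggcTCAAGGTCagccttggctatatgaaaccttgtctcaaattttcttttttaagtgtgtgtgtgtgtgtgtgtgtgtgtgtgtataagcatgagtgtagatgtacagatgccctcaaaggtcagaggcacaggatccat

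The second octamer of the Relb vehicle peak lay outside the cAMP peak, and the proximal of the shared Bcl3 peaks held its octamers away from the centre, so these and the octamer of the distal Bcl3 pair are shown with 20 bases on either side. The Relb site is read on the plus strand and the Bcl3 sites on the minus strand, the strand from which Bcl3 is read. The 2 sites of the proximal Bcl3 peak begin at 7:19823291 and 7:19823632, and the site of the distal one begins at 7:19829146.
Relb, vehicle peak only: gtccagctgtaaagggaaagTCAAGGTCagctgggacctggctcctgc
Bcl3, proximal peak, site near the gene: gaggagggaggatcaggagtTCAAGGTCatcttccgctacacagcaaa
Bcl3, proximal peak, far site: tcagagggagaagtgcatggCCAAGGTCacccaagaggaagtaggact
Bcl3, distal peak: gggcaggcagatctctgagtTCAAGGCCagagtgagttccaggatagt

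Peaks were assigned to 8 of the 9 members in the vehicle list, all but Nfkbia. For comparison, 36.7% of all protein-coding genes had a vehicle peak by the same rule. In the cAMP list 6 members had a peak, namely Rel, Relb, Nfkbia, Nfkbib, Nfkbie and Bcl3, against 28.9% of all genes. Both lists gave a peak to Rel, Relb, Nfkbib, Nfkbie and Bcl3, which was 5 members against 22.5% of genes, and every member had a peak in at least 1 list, against 43.1% of genes. By role, all 5 subunit genes had a vehicle peak, and Rel and Relb had a cAMP peak. Of the 3 inhibitor genes 2 had a vehicle peak and all 3 had a cAMP peak. At scores of at least 75 the subunit genes left were Nfkb1, Nfkb2 and Relb (vehicle) and Relb (cAMP). Among the inhibitor genes only Nfkbib was left, in both lists. With 5 and 3 genes to a role, nothing was read from these counts. At least 4 peaks were assigned to Nfkbie and Bcl3 in the vehicle list, as in 2.64% of genes, and to Bcl3 in the cAMP list, as in 0.748% of genes. The members lay in windows with a median of 5 other protein-coding genes, compared with 3 for all genes, and their median length was 10.6 kb, compared with 17.4 kb.

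**Figure D1:**
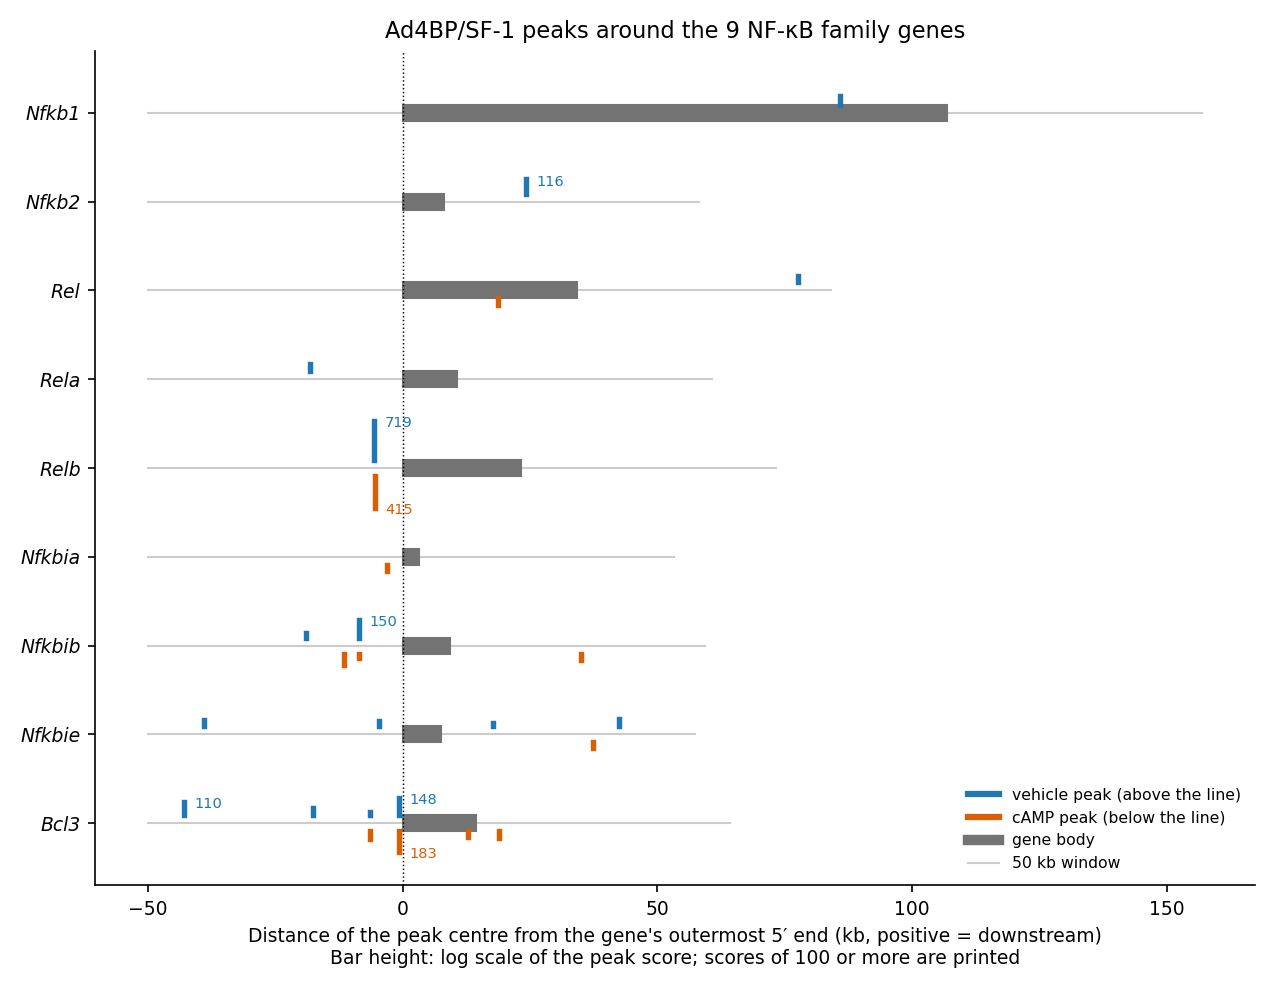
Ad4BP/SF-1 peaks around the 9 NF-kappa-B family genes, by distance of the peak centre from the outermost 5′ end of the gene in kb, with positive values downstream. Blue bars above each line are vehicle peaks, orange bars below it are cAMP peaks, bar height follows the score on a log scale and scores of at least 100 are printed; the tall pair lies upstream of Relb and the window with the most peaks over both lists is that of Bcl3.

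The score of a peak is 10 times −log10 of the p-value that the peak caller gave it, and it grows with the number of reads, so ranks within a list are given beside the scores. The median score was 68.4 for the 15 vehicle peaks of the family and 72.4 for the whole vehicle list. In the cAMP list the medians were 64.7 for the 11 peaks of the family and 67.9 for all peaks. Under the median of its list, which divides all peaks evenly, lay the score of 9 of 15 vehicle peaks and of 7 of 11 cAMP peaks. Scores of at least 100 were found for 5 of 15 vehicle peaks, at Relb, Nfkbib, Bcl3 (2 peaks) and Nfkb2, and for 2 of 11 cAMP peaks, at Relb and Bcl3. In the whole lists 1521 of 5721 vehicle peaks and 927 of 4025 cAMP peaks scored at least 100.

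**Figure D2:**
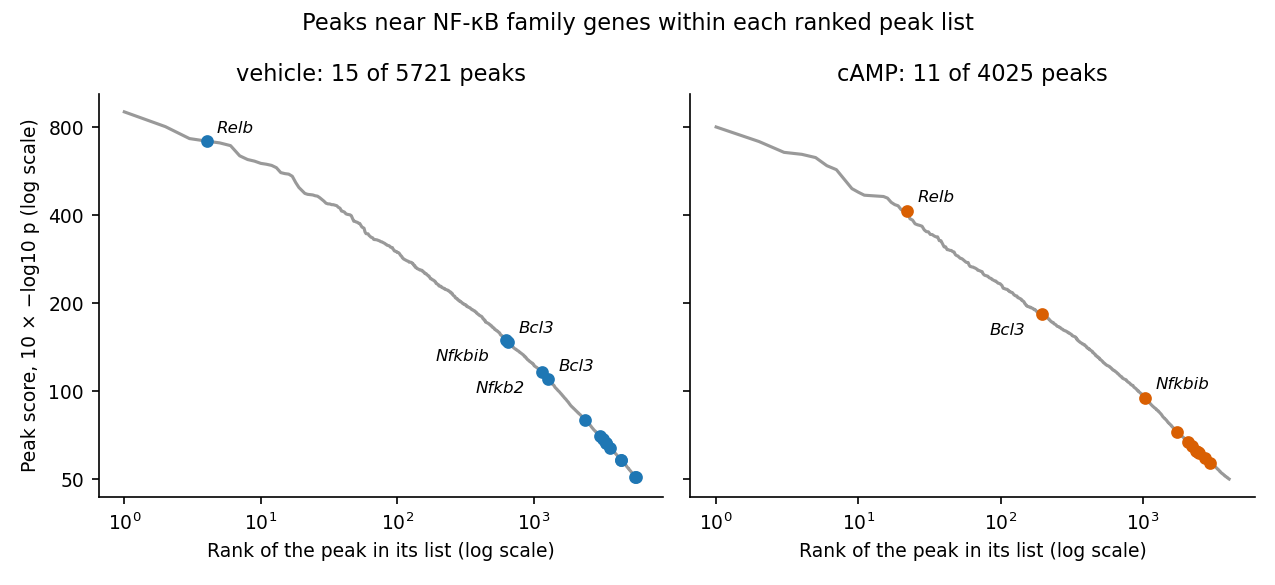
Score against rank, both on log axes, for all peaks of the vehicle list (left) and of the cAMP list (right) as grey lines, with the peaks near NF-kappa-B family genes as points and those scoring above 90 named. The Relb peaks stand at ranks 4 and 22, and all other points lie below a score of 200.

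Relb, the transactivating subunit of the non-canonical dimer, had the strongest peak of the family in both lists. In the vehicle list the peak spanned 1288 bp at chr7:19634396-19635683, with its centre 5.60 kb upstream of the Relb 5′ end. Its score was 719, which ranked 4 among 5721 peaks and exceeded 99.9% of them. The peak ranked directly above it scored 733 and lay 0.228 kb from a transcription start site (TSS) of Atp5b, which encodes the beta subunit of the mitochondrial ATP synthase. The peak directly below it scored 709, spanned 4031 bp and lay 106 kb from its nearest protein-coding gene, Esp38.

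In the cAMP list the Relb peak spanned 660 bp at chr7:19634471-19635130 with a score of 415, which ranked 22 among 4025 peaks and exceeded 99.5% of them. Its neighbours in rank lay near Ptprb, a receptor tyrosine phosphatase of blood vessels, with a score of 416, and near Cox8a, a subunit of cytochrome c oxidase, with a score of 389.59. The cAMP peak was contained whole in the vehicle peak, and the centres were 239 bp apart. The vehicle score was 1.73 times the cAMP score, and 80.6% of the 2167 peaks shared by the lists had a lower ratio, the median ratio being 1.14.

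**Figure D3:**
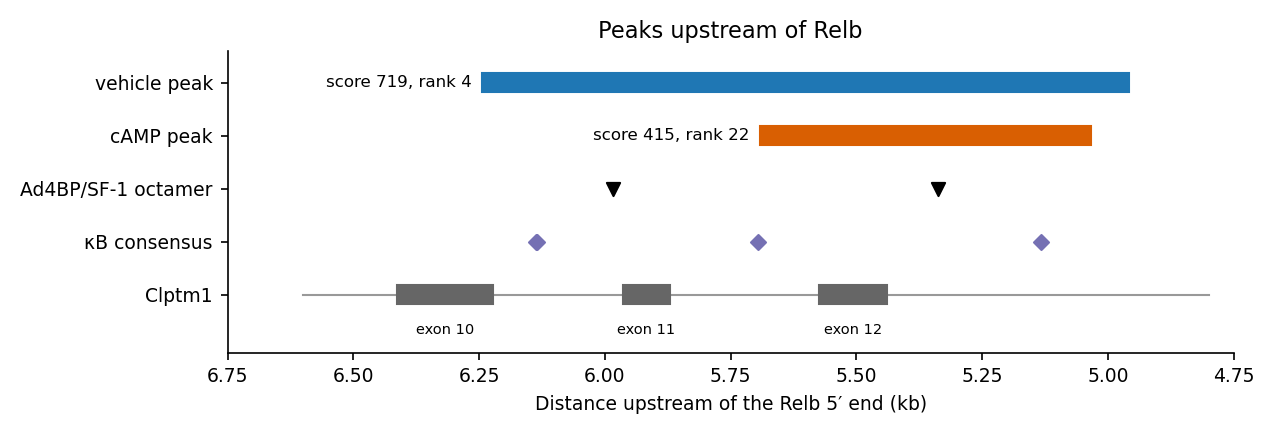
The vehicle and cAMP peaks upstream of Relb, by distance upstream of the Relb 5′ end in kb, with the Ad4BP/SF-1 octamers (triangles), the kappa-B consensus matches (diamonds) and exons 10 to 12 of Clptm1. Of the 2 octamers in the vehicle peak 1 also lies in the cAMP peak, and a pair of kappa-B matches on opposite strands 1 bp apart appears as a single diamond.

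The Relb peaks lay inside a neighbouring gene. Their centres fell in introns 11 (vehicle) and 12 (cAMP) of Clptm1, which encodes a transmembrane protein and is read from the same strand as Relb. The vehicle peak covered 255 bp of coding sequence in exons 10, 11 and 12 of Clptm1, and the cAMP peak covered 136 bp, all of exon 12. The TSS nearest to the vehicle peak, 1.14 kb away, belonged to a retained-intron transcript of Clptm1 of 1513 bp. When only the outermost 5′ end of each gene was used, the nearest gene was Relb itself at 5.60 kb. The octamer shared by both peaks was in intron 12 of Clptm1 and lay 26 bp from the centre of the cAMP peak, whereas the octamer confined to the vehicle peak was in intron 10, 647 bp away. From the centre of the vehicle peak the shared octamer lay 265 bp and the other 382 bp away. Of the octamers in all vehicle peaks, 81.6% lay within 100 bp of the centre.

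The kappa-B consensus, the element bound by NF-kappa-B dimers themselves, was also searched by its standard degenerate form on both strands. It occurred in 2 of 15 vehicle peaks of the family, at Relb and Bcl3, against 10% of all vehicle peaks, and in 3 of 11 cAMP peaks, at Relb and Bcl3 (2 peaks), against 8.65% of all cAMP peaks. The Relb vehicle peak held 4 start positions, of which those at 7:19635568 and 7:19635569 overlap on opposite strands. At least 4 positions were held by 3 of 5721 vehicle peaks, and at least 3 by 11. Among the 34 vehicle peaks of 1000 bp or wider, 29.4% held at least 1 match and the Relb peak alone held at least 3. Of these matches, that at 7:19634566 lay in both Relb peaks, and those at 7:19635128 and 7:19635568 lay whole only in the vehicle peak. They are shown here on the plus strand with the match in capitals, because they stand 150 to 290 bp from the nearest octamer.
Relb, kappa-B match in both peaks: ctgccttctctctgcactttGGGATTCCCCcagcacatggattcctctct
Relb, kappa-B match near the vehicle peak centre: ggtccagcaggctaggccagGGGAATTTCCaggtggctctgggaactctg
Relb, kappa-B match in the far part: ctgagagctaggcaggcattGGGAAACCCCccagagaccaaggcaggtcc

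Bcl3 encodes a nuclear member of the inhibitor family that binds homodimers of NF-kappa-B subunits and can act as a coactivator. It lies on chromosome 7 as Relb does, with 179 kb between the gene bodies, and had 4 peaks in each list. Its proximal peak was centred 0.708 kb upstream of the TSS in the vehicle list (chr7:19822995-19823961) with a score of 148, which ranked 648. The same site was centred 0.698 kb upstream in the cAMP list with a score of 183, which ranked 195 and placed it in the top 4.84% of the list. The proximal peaks shared 958 bp, and the vehicle score was 0.805 times the cAMP score, a ratio that exceeded 21.9% of shared pairs. The distal pair, centred 6.40 kb upstream, had a vehicle score of 51.0 and a cAMP score of 72.7. Both Bcl3 pairs thus had the higher score in the cAMP list, unlike the pairs of Relb and Nfkbib.

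The remaining 4 Bcl3 peaks had no counterpart. In the vehicle list a peak scoring 109.96 lay 43.0 kb upstream, nearest to Ceacam16, a cell adhesion molecule of the inner ear, and a peak scoring 68.4 lay 17.7 kb upstream, nearest to the predicted gene Gm19345. In the cAMP list a peak scoring 61.9 lay in intron 6 of Bcl3, 0.273 kb upstream of an internal TSS, and a peak scoring 64.7 lay 4366 bp beyond the 3′ end of the gene. The latter held an octamer and 2 kappa-B matches, which began 22 and 84 bp from it, whereas the intron 6 peak held neither.

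Nfkbib, which encodes IkB-beta, had 2 vehicle peaks and 3 cAMP peaks, and most of them lay in Sirt2, a deacetylase gene that overlaps its 5′ end. The pair shared by the lists was centred 8.65 kb upstream of Nfkbib in the vehicle list, in intron 4 of Sirt2. Its score was 149.9 in the vehicle list, rank 628, and 57.0 in the cAMP list, rank 2965. The ratio of 2.63 exceeded 95.3% of shared pairs. Its pair of TCAAGGTC octamers began 29 bp apart, and 55.3% of the vehicle peak was soft-masked, that is marked as repeat sequence in the reference. A cAMP peak scoring 94.95 without a counterpart lay 2.40 kb away from that vehicle peak, in intron 8 of Sirt2, and held 2 CCAAGGTC octamers that began 16 bp apart. A further vehicle peak scored 58.0 in intron 13 of Sirt2, and a further cAMP peak scored 62.6 over exon 3 of Fbxo17, an F-box protein gene, 34.0 kb downstream of the nearest Nfkbib TSS.

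**Figure D4:**
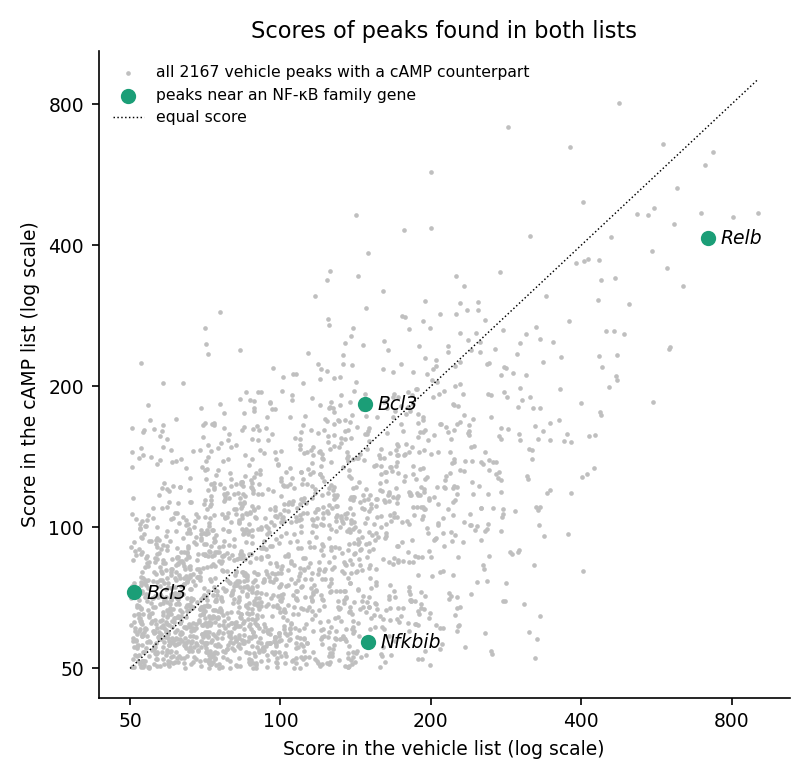
Scores in the vehicle list (x axis) and in the cAMP list (y axis), both on log axes, for the 2167 vehicle peaks with a cAMP counterpart (grey) and for those near NF-kappa-B family genes (green). The Relb and Nfkbib pairs lie below the line of equal score and both Bcl3 pairs lie above it.

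Nfkbia, which encodes IkB-alpha, the inhibitor that is itself a rapid NF-kappa-B target, was the member with a cAMP peak only. The peak at chr12:55495524-55496019 scored 61.6, ranked 2460 and was centred 3.12 kb upstream of the gene in intergenic sequence. It held no octamer but 1 match to the 7-base core (CAAGGCC or CAAGGTC), and the nearest vehicle peak was 79.0 kb away. The Nfkbia TSS was the nearest to this peak.

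Nfkbie, which encodes IkB-epsilon, had 4 vehicle peaks and 1 cAMP peak, and none overlapped a peak of the other list. The vehicle scores were 64.1 at 39.1 kb upstream, 58.1 at 4.56 kb upstream, 50.6 at 17.7 kb downstream and 70.4 at 42.4 kb downstream of its nearest TSS. All were therefore below the vehicle median. The cAMP peak scored 58.9 at 37.3 kb downstream. No peak had Nfkbie as its nearest gene, which was in turn Aars2 (mitochondrial alanyl-tRNA synthetase), Tmem151b (a transmembrane protein), Hsp90ab1 (a cytosolic chaperone) and, for the last vehicle peak and the cAMP peak, Slc29a1 (a nucleoside transporter). The Hsp90ab1 peak was centred 0.192 kb and the cAMP peak 0.173 kb from a TSS of those genes.

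The other subunit genes had at most 1 peak in each list. For Nfkb1, the precursor of the DNA-binding partner of Rela, a vehicle peak scoring 79.9 lay in intron 14 of the gene, 85.8 kb downstream of its 5′ end. It was 1.88 kb upstream of the start of a retained-intron transcript, held neither octamer nor core, and was 1727 kb from the nearest cAMP peak. For Nfkb2, the precursor of the partner of Relb, a vehicle peak scoring 116 lay 22.3 kb downstream of its nearest TSS, over exon 1 of the F-box protein gene Fbxl15. Other protein-coding genes with a closer TSS numbered 5. This peak and the far upstream one of Bcl3 were the 2 vehicle peaks of the family that scored at least 100 without a counterpart.

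Rela, the transactivating subunit of the classical dimer, had a vehicle peak scoring 66.3, centred 18.2 kb upstream and nearest to the acetyltransferase gene Kat5. It held 2 TCAAGGTC octamers that began 127 bp apart, and 52.7% of it was soft-masked. Rel, which encodes c-Rel, had a vehicle peak scoring 66.4 in intron 4 of the pseudouridine synthase gene Pus10, 77.5 kb from the Rel TSS. Its cAMP peak scored 67.2 and lay in intron 4 of Rel, 18.8 kb from the TSS and 58.3 kb from the vehicle peak, so that the assignment of Rel in both lists rested on different sites.

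Sharing between the lists was counted for the peaks near these genes and for all peaks. Of the vehicle peaks 4 of 15 had a cAMP counterpart, against 37.9% of all vehicle peaks, and of the cAMP peaks 4 of 11 had a vehicle counterpart, against 53.8% of all cAMP peaks. In the lists as a whole the share rose with score: 67.9% of vehicle peaks scoring at least 100 and 22.2% of those under 75 had a counterpart, as had all 57 peaks in the top 1% by rank. The share in the cAMP list was 88.6% at scores of at least 100 and 37.3% under 75. Most peaks of the family were in the low class, with 9 of 15 vehicle peaks and 8 of 11 cAMP peaks under 75. Among the 11 vehicle peaks without a counterpart the nearest cAMP peak was between 4.65 kb and 1727 kb away, with a median of 41.4 kb.

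The octamer was present in 13 of 15 vehicle peaks and 9 of 11 cAMP peaks of the family, against 80.4% and 77.1% of all peaks. The peaks without it were those in Nfkb1, in Slc29a1 (vehicle), upstream of Nfkbia and in intron 6 of Bcl3. The 22 peaks that held it had 23 distinct octamers, of which 14 were TCAAGGTC, 4 CCAAGGTC, 4 TCAAGGCC and 1 CCAAGGCC. The median distance from the peak centre was 48 bp in vehicle and 30 bp in cAMP peaks of the family, compared with 45 and 46 bp for all octamers of the lists. In 22 of the 23 the next base was A, as in 81.4% of octamers in all vehicle peaks and 84.4% in all cAMP peaks. All 8 peaks with a counterpart held an octamer, as did 14 of the 18 without. The 8 are 4 sites counted once in each list, so nothing was read from this contrast. In the whole lists the octamer share also differed by score. It was 87.5% (vehicle) and 92.0% (cAMP) at scores of at least 100, and 75.8% and 68.5% under 75.

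The nearest protein-coding TSS was that of the member for 3 of 15 vehicle peaks, at Nfkb1 and Bcl3 (2 peaks), and for 6 of 11 cAMP peaks, at Rel, Nfkbia and Bcl3 (4 peaks). Counted by gene, 2 of the 9 members had the TSS nearest to at least 1 vehicle peak, beside 18.1% of all protein-coding genes, and 3 of the 9 to at least 1 cAMP peak, beside 14.1%. A peak centre within 1 kb of a member's TSS was found only at Bcl3, for 1 of 15 vehicle and 2 of 11 cAMP peaks. Of all peaks, 13.9% (vehicle) and 11.8% (cAMP) lay within 1 kb of a TSS of any protein-coding gene. Of the 2 cAMP peaks, 1 was near an internal TSS, 12.8 kb downstream of the Bcl3 5′ end. By position, 10 vehicle peaks lay upstream of the member, 4 downstream and 1 in the gene body, and the cAMP list had 6, 3 and 2. The peaks farthest inside the window were the Rel vehicle peak at 43.2 kb and the Bcl3 vehicle peak at 42.7 kb from the gene body, and the closest outside it were a cAMP peak scoring 88.5 and a vehicle peak scoring 64.9, both 61.5 kb from Bcl3, followed by vehicle peaks scoring 79.1 at 64.0 kb from Bcl3 and 190.01 at 64.7 kb from Relb.

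**Figure D5:**
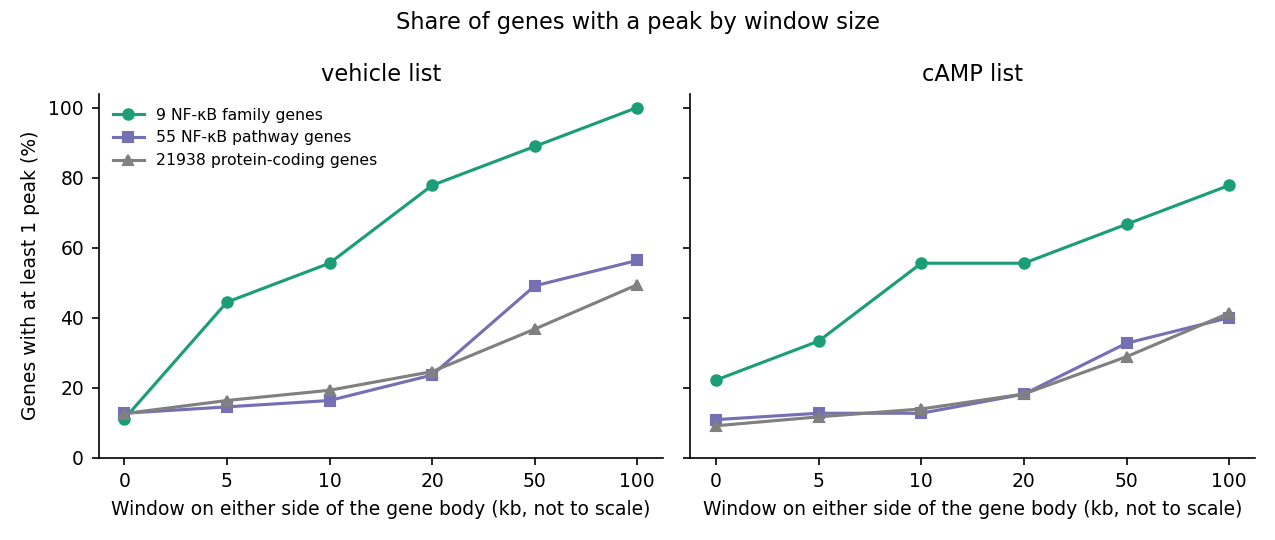
Percent of the NF-kappa-B family genes (9), of other NF-kappa-B pathway genes (55) and of all protein-coding genes with at least 1 peak in the vehicle list (left) and the cAMP list (right), for windows of 0 to 100 kb on either side of the gene body (x axis, not to scale). With no window 1 family member has a vehicle peak and 2 have a cAMP peak, and the pathway genes follow all genes closely up to 20 kb.

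Promoter sequences, from 250 bases before to 50 after the start, were matched in RefSeq for 7 of the 9 members, all but Nfkb1 and Relb. None of the 7 had an octamer in its promoter, and 6.50% of 27025 genes in the same table did. The kappa-B consensus was found in the promoters of 5, namely Nfkb2, Rel, Nfkbia, Nfkbie and Bcl3, and in those of 9.55% of all genes. Only the Bcl3 promoter was touched by peaks, of which the vehicle peak covered 11 bp and the cAMP peak 22 bp.

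Of a list of 55 other genes of the pathway, 27 (49.1%) had a vehicle peak within 50 kb and 18 (32.7%) had a cAMP peak, beside 36.7% and 28.9% of all protein-coding genes, and 17 of the 55 had both, beside 22.5%. By role, a vehicle peak was found for 5 of 10 genes of the IKK complex and of the kinases upstream of it with their partners, for 5 of 12 adaptors and ubiquitin ligases, for 5 of 8 receptors, for 4 of 8 ligands, for 3 of 5 negative regulators, for 5 of 10 target genes and for 0 of 2 atypical IkB genes. A cAMP peak was found, in the same order, for 3 of 10, 1 of 12, 3 of 8, 3 of 8, 3 of 5, 4 of 10 and 1 of 2. These roles hold 2 to 12 genes each, so nothing was read from the shares. Chuk and Ikbkb, which encode the catalytic subunits of the IKK complex, and Ikbkg, which encodes its regulatory subunit, had no peak in either list. The same held for Tnfaip3, the deubiquitinase that ends the signal, and for the targets Il6, Cxcl1, Sod2, Cflar and Ptgs2.

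A peak in the top 10% of its list was assigned to 4 of the 55 pathway genes in the vehicle list, beside 6.5% of all protein-coding genes, and to 3 of 55 in the cAMP list, beside 4.34%. In the vehicle list these were Gadd45b, a stress-response gene (259.97, 9.78 kb downstream of its TSS), the receptor genes Tnfrsf13c (249.98, nearest to Cenpm) and Cd40 (160.7, nearest to Ncoa5), and the adhesion molecule gene Icam1 (229, nearest to Dnmt1). In the cAMP list they were Icam1 (259.5), the kinase gene Ikbke (191, nearest to Rassf5) and the survival gene Bcl2l1 (148.69, inside the gene). Only the Gadd45b and Bcl2l1 peaks had the pathway gene's TSS as the nearest. Tnf, Lta and Ltb, adjacent ligand genes, shared 1 peak with a vehicle score of 58.9 and a cAMP score of 95.9. None of these strong peaks reached the score of the Relb peak of the same list.

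The lists report binding and not RNA, so marker genes of cell types show only whether Ad4BP/SF-1 peaks lay near them. Of 6 Leydig markers, Star, Cyp11a1 and Cyp17a1 had a vehicle peak and Star and Cyp11a1 a cAMP peak, whereas Hsd3b6, Insl3 and Lhcgr had none, beside 36.7% and 28.9% of all protein-coding genes. The strongest Star peaks lay 44.9 kb (vehicle) and 44.8 kb (cAMP) from its TSS, nearest to Ddhd2, those of Cyp11a1 were nearest to Ccdc33, and that of Cyp17a1 was nearest to Wbp1l. Of the Sertoli cell markers Amh, Sox9 and Dhh, 2 had a vehicle peak and 1 a cAMP peak, and of the macrophage markers Adgre1, Csf1r, Cd68 and Ptprc only Cd68 had peaks, in both lists, the strongest of which were nearest to Eif4a1. With 3 to 6 genes in a list and the shares of all genes as above, nothing was read from these counts. The part of other cells of the culture in any peak was not tested.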

How the data were processed

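Peak lists of the vehicle and cAMP libraries were used as deposited; the input library was not analysed here. The authors aligned reads to mm10 with Bowtie (version 0.12.8 in the submitters' processing notes), kept unique alignments and called peaks per library with MACS. The deposited score is 10 times −log10 of the peak's p-value, and both lists begin at a score of 50 (p-value 1e-05), a stricter limit than the p-value threshold that the study's methods state. Whether input served as control, and the read depth, are not given in the sources used here, so no counting interval was computed for scores.

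Positions were converted to 1-based coordinates and compared with GENCODE M21 protein-coding genes, and sequences were read with pysam 0.24.0 from RefSeq GRCm38.p6. Counterparts shared at least 1 bp. Nearest TSS were taken over all annotated transcripts. Named genes were the members, the genes nearest to their peaks and to the peaks adjacent in rank to the Relb peaks, pathway genes with a peak in the top 10% of a list, and the markers; pathway genes or matches named beyond this were chosen after their values were seen. The members and gene lists were chosen with earlier results of these data known. The search and assignment steps were tested on simulated peaks. Alternatives changed the window, the minimum score, the length of the vehicle list, the counterpart rule, the motif and the TSS set.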

Additional observations from a re-analysis of the deposited data

How the results depend on the processing

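With 1 library per condition, an unknown depth and no interval for scores, a peak missing from a list cannot be told from one just under its threshold. All counts below are given in the order vehicle, cAMP. Members with a peak (8, 6; both lists 5) numbered 1, 2 and 0 with gene bodies only, 5, 5 and 3 at 10 kb, 5, 3 and 3 at scores of at least 75, 4, 2 and 2 at scores of at least 100, and 2, 3 and 1 when each peak was given to the nearest TSS only, an alternative added after the data were seen. Member peaks (15, 11) numbered 1 and 2 in gene bodies, 6 in the vehicle list at 10 kb, 26 in the vehicle list at 100 kb, 6 and 3 at scores of at least 75, and 5 and 2 at scores of at least 100. Peaks with a counterpart (4, 4) numbered 0 and 0 in gene bodies, 9 and 9 at 100 kb, 2 and 2 at scores of at least 75 and 2 and 2 at scores of at least 100. Peaks with the octamer (13, 9) numbered 5 and 3 at scores of at least 75 and 5 and 2 at scores of at least 100. With the vehicle list limited to its 4025 top-scoring peaks, the length of the cAMP list, 8 members had a vehicle peak and 5 had a peak in both lists, 11 vehicle peaks were assigned to members, and 3 peaks of either list had a counterpart. With outermost 5′ ends, 5 instead of 3 vehicle peaks were nearest to their member. Pathway genes with a peak (27, 18) numbered 7 and 6 in gene bodies, 9 and 7 at 10 kb, 16 in the vehicle list at scores of at least 75, and 12 and 7 at scores of at least 100. The share of all protein-coding genes (36.7%, 28.9%) was 12.6% and 9.16% in gene bodies, 19.3% and 14% at 10 kb, 49.4% and 41.3% at 100 kb, 22.4% and 14.6% at scores of at least 75, and 14.6% and 9.12% at scores of at least 100. These settings keep fewer or more peaks or genes by construction. Relb, Nfkbib and Bcl3 kept a vehicle peak at scores of at least 100, as did Nfkb2. No paired analysis was possible because each condition had 1 library and no replicate numbers.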

Other observations

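Some octamers near these genes lay in repeat sequence. Of the 23 distinct octamers in peaks of the family, 11 lay in soft-masked letters of the reference, at Rel, Rela, Nfkbib and Bcl3. In the vehicle list 10 of 17 octamers of the family were masked, compared with 36.1% of the octamers in all vehicle peaks, and in the cAMP list 5 of 12 were masked, which is close to the 40.9% of octamers in all cAMP peaks. In 3 of the 23, at Rel, Rela and Nfkbib, the octamer was followed within 20 bases by GCTACATAG, a run picked after the sequences had been seen. The same held for 53 of 6017 octamers in all vehicle peaks and 42 of 4049 in all cAMP peaks. The first and the second of the lines below are shown because they come from peaks without a counterpart, and the last comes from the pair shared by the lists. Capitals mark the octamer.
Rel, cAMP peak in intron 4, plus strand: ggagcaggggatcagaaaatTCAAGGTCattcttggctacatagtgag
Rela, vehicle peak, minus strand: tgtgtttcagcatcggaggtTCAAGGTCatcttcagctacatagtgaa
Nfkbib, shared peak, plus strand: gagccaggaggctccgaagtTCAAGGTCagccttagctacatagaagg

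Among pathway genes, the strongest assigned peak was centred within 1 kb of a TSS of the gene at Otulin, which encodes a deubiquitinase of linear ubiquitin chains, in both lists, and in the cAMP list also at Tab1, which encodes a partner of the kinase TAK1, and at Nfkbid, which encodes an atypical nuclear inhibitor. These genes were picked after their values were seen, so their number, 1 of 55 in the vehicle list and 3 of 55 in the cAMP list, beside 2.53% and 1.69% of all protein-coding genes by the same rule, is a description. The Otulin peak was centred 0.447 kb upstream in the vehicle list, with a score of 121, and 0.379 kb upstream in the cAMP list, with a score of 107. The Tab1 peak of the cAMP list scored 122, was centred 0.183 kb downstream of the TSS, held no octamer and had a vehicle counterpart. The Nfkbid peak was present in the cAMP list only, with a score of 83.9, 2 octamers and its centre 0.14 kb upstream of the TSS.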
